A study of Homo sapiens with 3 samples.

Results

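Antisense RNA genes, here the genes whose symbol ends in AS, with or without a number, after a root that is usually the symbol of another gene, were described at the promoter-class peaks of 2 chromatin immunoprecipitation peak lists from A2780, a human ovarian cancer cell line that the labels call serous. Members were chosen by the peak calls and peak classes of the authors' tables: the peaks that those tables place in the promoter class with at least 1 transcript row of such a gene, each position counted once. The rule gave 33 Flag-USP39 peaks with 33 antisense genes and 144 POLR2A peaks with 122 antisense genes, together 177 of the 25592 peaks in both lists and 145 different genes. The rule used the deposited peak calls and their classes, so presence in the lists describes the members and was not tested.

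The study holds 3 libraries of A2780 cells. The first is an anti-Flag precipitate of cells carrying Flag-USP39. The second was precipitated with a POLR2A antibody and served as the positive control of the study. The third is the input, 10% of the genomic DNA. There is 1 library per group and no replicate, so no difference between groups could be tested, and both lists were called against the same input. The sources used here do not give how the cells came to carry Flag-USP39, and a precipitation from cells without the tag was not analysed here.

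An antisense RNA gene is usually transcribed from the strand opposite to the gene it is named after, here called its namesake, and most such genes make long noncoding RNAs. Many start close to the start of the namesake and point away from it, so that a single open promoter region serves both strands; such a promoter is called divergent or bidirectional. Others start inside the namesake, so that their 5′ ends overlap, or far from it. POLR2A is the largest subunit of RNA polymerase II, which gathers at active starts, and USP39 is a protein of the tri-snRNP, the particle that carries small nuclear RNAs into the assembling spliceosome.

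Promoter windows of 6 antisense genes are printed to show what lies between the starts that shared a peak. They were chosen after the values were seen and come from RefSeq on GRCh38.p14, from 250 bases before to 50 bases after the antisense start, on the antisense strand, 5′ to 3′. In the first 5 windows the capitals mark every base from the start of the gene on the opposite strand to the antisense start. In the last, where the other start lies outside the window, they mark the 50 bases after the antisense start. The windows are KTN1-AS1 at chr14:55580043-55580342 on the minus strand, UBL7-AS1 at chr15:74461015-74461314 on the plus strand, CCNT2-AS1 at chr2:134918557-134918856 on the minus strand, KDM4A-AS1 at chr1:43707292-43707591 on the minus strand, PXN-AS1 at chr12:120201041-120201340 on the plus strand and VIM-AS1 at chr10:17229936-17230235 on the minus strand.
KTN1-AS1: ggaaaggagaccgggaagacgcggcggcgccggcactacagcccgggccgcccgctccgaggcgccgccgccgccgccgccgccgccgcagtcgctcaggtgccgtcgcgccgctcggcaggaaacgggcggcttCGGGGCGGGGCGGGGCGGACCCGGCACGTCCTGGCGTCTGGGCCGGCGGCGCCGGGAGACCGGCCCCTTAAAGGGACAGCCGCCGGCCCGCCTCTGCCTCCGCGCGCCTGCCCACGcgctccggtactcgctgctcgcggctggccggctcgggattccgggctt
UBL7-AS1: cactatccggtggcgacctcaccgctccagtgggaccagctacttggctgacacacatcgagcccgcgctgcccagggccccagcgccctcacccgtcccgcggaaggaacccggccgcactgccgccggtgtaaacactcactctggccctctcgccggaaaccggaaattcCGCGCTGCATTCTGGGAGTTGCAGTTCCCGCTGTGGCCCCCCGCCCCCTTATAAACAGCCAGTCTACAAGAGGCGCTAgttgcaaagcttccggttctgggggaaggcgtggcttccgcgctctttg
CCNT2-AS1: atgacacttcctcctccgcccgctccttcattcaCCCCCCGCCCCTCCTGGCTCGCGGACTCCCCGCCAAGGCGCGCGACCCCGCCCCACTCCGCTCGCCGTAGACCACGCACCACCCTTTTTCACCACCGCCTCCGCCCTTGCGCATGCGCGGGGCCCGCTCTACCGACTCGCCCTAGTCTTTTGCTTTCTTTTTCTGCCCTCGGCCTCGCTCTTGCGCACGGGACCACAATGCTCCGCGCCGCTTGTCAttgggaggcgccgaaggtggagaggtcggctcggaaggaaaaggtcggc
KDM4A-AS1: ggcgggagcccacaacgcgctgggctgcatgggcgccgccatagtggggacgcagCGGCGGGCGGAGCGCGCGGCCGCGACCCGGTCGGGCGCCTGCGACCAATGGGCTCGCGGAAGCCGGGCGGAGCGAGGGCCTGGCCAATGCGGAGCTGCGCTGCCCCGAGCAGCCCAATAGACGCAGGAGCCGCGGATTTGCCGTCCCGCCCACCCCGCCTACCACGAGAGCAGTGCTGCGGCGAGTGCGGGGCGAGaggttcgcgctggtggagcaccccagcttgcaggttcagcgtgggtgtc
PXN-AS1: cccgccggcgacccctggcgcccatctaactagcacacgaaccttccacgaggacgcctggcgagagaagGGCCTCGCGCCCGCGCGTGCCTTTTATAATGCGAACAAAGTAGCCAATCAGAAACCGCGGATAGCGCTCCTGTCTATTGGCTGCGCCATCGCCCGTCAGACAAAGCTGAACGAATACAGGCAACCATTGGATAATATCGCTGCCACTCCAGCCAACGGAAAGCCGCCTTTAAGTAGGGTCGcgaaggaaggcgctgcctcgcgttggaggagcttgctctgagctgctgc
VIM-AS1: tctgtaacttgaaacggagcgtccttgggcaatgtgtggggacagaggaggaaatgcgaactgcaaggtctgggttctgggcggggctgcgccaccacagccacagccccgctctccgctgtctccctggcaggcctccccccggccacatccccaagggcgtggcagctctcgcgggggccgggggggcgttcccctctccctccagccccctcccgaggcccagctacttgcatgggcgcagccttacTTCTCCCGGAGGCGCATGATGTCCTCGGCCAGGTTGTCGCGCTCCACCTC

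The KTN1-AS1 window held 116 bases from the start of KTN1, the gene of the kinesin-binding protein kinectin, to that of KTN1-AS1. It was 80.0% G or C with 54 CpG dinucleotides. From start to start, both included, there were 78 bases in the UBL7-AS1 window and 217 in the CCNT2-AS1 window. The namesake of CCNT2-AS1 encodes cyclin T2, a subunit of the elongation factor P-TEFb. At KDM4A-AS1 and PXN-AS1 the start on the other strand was not the namesake's. It belonged to ST3GAL3, a sialyltransferase gene, 196 bases in all, and to RPLP0, a gene of the ribosomal stalk, 181 bases in all. The VIM-AS1 window held no start of VIM, which encodes the intermediate filament protein vimentin.

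Motifs were searched on both strands of the 300-base windows, and the matches are a description of these letters only. A match that overlaps an earlier one on the same strand was not counted, which lowers the GC box count of the KTN1-AS1 window. The GC box GGGCGG was counted 4 times in the KTN1-AS1 window, 4 times in that of CCNT2-AS1 and 3 times in that of KDM4A-AS1. It was counted once each in those of UBL7-AS1 and VIM-AS1 and not in that of PXN-AS1. It was in 44.9% of all 35097 windows of the RefSeq table. The CCAAT box, searched as CCAAT, had 3 matches in each of the KDM4A-AS1 and PXN-AS1 windows and 1 in that of CCNT2-AS1, and was in 34.6% of all windows. The TATA box, searched as TATAAA, had 1 match in each of the UBL7-AS1 and PXN-AS1 windows and was in 11.5% of all windows. The ETS motif CCGGAAG had 1 match, in the UBL7-AS1 window, and was in 10.3% of all windows. No searched motif contains another.

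Antisense genes were a like share of the promoter-class peaks of both antibodies. The 33 Flag-USP39 members were 4.93% of the 669 promoter-class peaks of that list (95% Wilson interval 3.53% to 6.85%), and the 144 POLR2A members 5.74% of 2509 (4.90% to 6.72%). These intervals, like all others given here, cover counting error only. Of the symbols with the antisense ending that had any row, 33 of 242 (13.6%) had a promoter-class peak for Flag-USP39, where 10.4% of all symbols did, and 122 of 305 (40.0%) for POLR2A, where 31.6% of all symbols did. Among all peaks of the lists the promoter class made up 5.78% for Flag-USP39 and 17.9% for POLR2A. The rule used that class, so nothing is read from these shares.

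Most antisense rows lay outside the promoter class. Of the 374 Flag-USP39 peaks with an antisense row, 214 were intergenic, 66 intronic, 58 upstream, 33 promoter-class and 3 exonic. Of the 487 POLR2A peaks with one, 161 were intergenic, 144 promoter-class, 107 upstream, 71 intronic and 4 exonic. The promoter class ended near 2 kb from a start. For Flag-USP39 the members just inside were ADAMTSL4-AS1, with its peak centre 1991 bp downstream of the start and 5 tags, and SLC25A5-AS1, 1949 bp upstream with 3 tags. Just outside it lay ATP11A-AS1 at 2137 bp upstream with 7 tags and POTEH-AS1 at 2704 bp upstream with 4 tags. For POLR2A the members just inside were C5orf66-AS2, 1976 bp upstream with 4 tags, and RBM5-AS1, 1921 bp upstream with 4 tags. A further peak of HOXB-AS3 at 2076 bp upstream with 6 tags and one of CCND2-AS1 at 2188 bp upstream with 8 tags were outside. Of these peaks, those outside held more tags than those inside in the POLR2A list, while the counts overlapped in the Flag-USP39 list. So few peaks on each side do not allow a comparison of tags.

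Signal at the antisense promoters was low in most members and was close to that of promoter-class peaks at large. The tag count, the number of sequenced tags in a peak, had a median of 4 and a range of 3 to 39 in the 33 Flag-USP39 members, beside a median of 4 and a range of 3 to 278 over all promoter-class peaks of that list. In the 144 POLR2A members it had a median of 5 and a range of 4 to 43, beside a median of 5 and a range of 4 to 279. At least 10 tags were reached by 3 of 33 Flag-USP39 members (9.09%, 3.14% to 23.6%), beside 9.72% of all promoter-class peaks. The same was true of 16 of 144 POLR2A members (11.1%, 6.96% to 17.3%), beside 9.21%. The authors' score, a log10 transform of a peak's p-value in which 100 stands for 1e-10, was at least 100 in 3 of 33 Flag-USP39 members, beside 11.4% of all promoter-class peaks, and in 17 of 144 POLR2A members, beside 7.93%. With the few tags behind them, these shares lay near the background of their list.

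Fold enrichment, the authors' ratio of the precipitated library over the input background, had a median of 32.7 in the Flag-USP39 members and the same median over all promoter-class peaks of that list. For POLR2A the median was 24.9 in the members and again the same over all promoter-class peaks. The equal medians come with low counts: 28 of the 33 Flag-USP39 members (84.8%) and 87 of the 144 POLR2A members (60.4%) held 5 tags or fewer, beside 76.2% and 65.6% of all promoter-class peaks of those lists. The score had a median of 57.4 against 58.2 over all promoter-class peaks for Flag-USP39 and 55.4 against 52.6 for POLR2A. Peaks of the members had a median length of 314 bp for Flag-USP39 and 557 bp for POLR2A, beside 333 and 541 bp over all promoter-class peaks.

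**Figure D1:**
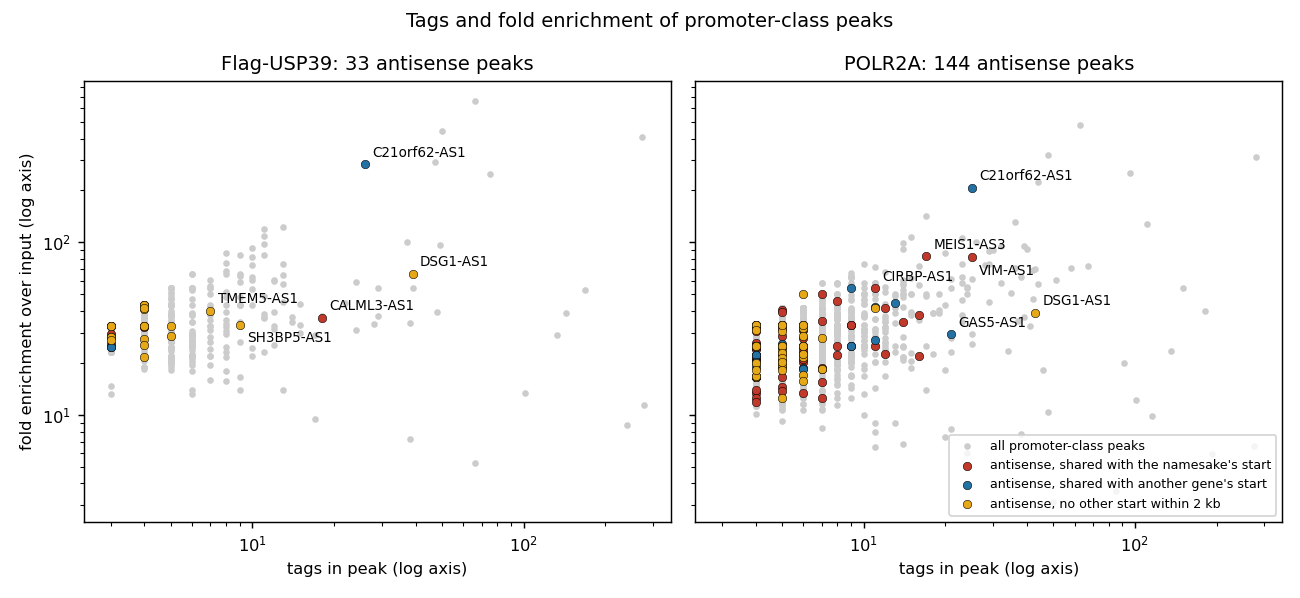
Tags per peak (horizontal, log axis) against the authors' fold enrichment over input (vertical, log axis) for Flag-USP39 (left) and POLR2A (right). Grey points are all promoter-class peaks and coloured points the 33 and 144 antisense members, by what start shares the peak; most members lie at the lower end of the tags, with C21orf62-AS1 and DSG1-AS1 apart from them in both panels.

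Only 3 Flag-USP39 members held at least 10 tags: C21orf62-AS1, DSG1-AS1 and CALML3-AS1. The highest fold enrichment of any member was at C21orf62-AS1, whose peak at chr21:34144074-34144378 (hg19) held 26 tags at 283-fold enrichment for Flag-USP39. In the POLR2A list the peak at chr21:34144096-34144377 held 25 tags at a fold enrichment of 208. They were 305 and 282 bp long and their centres lay 184 and 174 bp upstream of the antisense start, toward the start of PAXBP1, a gene for a PAX-binding protein, 241 bp away on the other strand. The gene's namesake had no row at either peak.

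DSG1-AS1, named after the desmosomal cadherin desmoglein 1, held the most tags of any member. Its peak had 39 tags at 66.0-fold enrichment for Flag-USP39, and 43 tags at 39.2-fold enrichment for POLR2A. The centres lay 1579 and 1627 bp upstream of the antisense start, and no other start was listed within the distance of the promoter class. A second POLR2A peak of DSG1-AS1 held 5 tags at 33.05-fold enrichment. It held the antisense start, with its centre 135 bp downstream of it. CALML3-AS1, named after a calmodulin-like protein gene, held 18 tags in the Flag-USP39 list at a fold enrichment of 36.7 and 16 tags in the POLR2A list at 22.1. The peak centres lay inside CALML3, between the starts of the pair, whose 5′ ends overlap by 1358 bp.

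The other Flag-USP39 members with the lowest p-values were small peaks. SH3BP5-AS1 held 9 tags at a fold enrichment of 33.0, and its centre lay 98.7% of the way along SH3BP5, a gene for a regulator of the small GTPase RAB11. TMEM5-AS1, now RXYLT1-AS1, held 7 tags at a fold enrichment of 40.2, with the antisense start inside the peak. CADM3-AS1, EGFLAM-AS2, HOXC-AS1 and KRT73-AS1 held 4 tags each and SLC25A5-AS1 held 3, all with fold enrichments from 32.7 to 43.5. The partner start at the CADM3-AS1 peak was that of ACKR1, a gene for an atypical chemokine receptor, 1590 bp away. At the HOXC-AS1 peak it was that of HOXC9, a homeobox transcription factor gene, 108 bp away. At the low end of the Flag-USP39 scores stood MAPKAPK5-AS1 with 50.1, APCDD1L-AS1 with 51.8, and HHIP-AS1 and SPACA6P-AS with 52.4 each.

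The 10 POLR2A members with the lowest p-values, except DSG1-AS1, all had a start on the other strand listed at their peak. Over all POLR2A members the same held for 105 of 144. VIM-AS1 held 25 tags at a fold enrichment of 82.6 in a peak at chr10:17271158-17272894 (hg19). MEIS1-AS3 held 17 tags at a fold enrichment of 83.2, with the start of MEIS1, a homeobox partner of HOX proteins, inside the peak and the antisense start 1929 bp from it. GAS5-AS1 held 21 tags at 29.4-fold, opposite the small nucleolar RNA gene SNORD81, which lies within the noncoding host gene GAS5. The listed SNORD81 start lay outside the peak, 1850 bp from its centre, and that of GAS5 was 5620 bp away.

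TBX2-AS1, beside a T-box transcription factor gene, held 16 tags at a fold enrichment of 37.8. HOXB-AS3 held 13 tags at 44.7-fold at a peak shared with HOXB5, whose start lay 371 bp from the centre. CIRBP-AS1 held 11 tags at 54.3-fold at a peak with the start of CIRBP, the gene of a cold-inducible RNA-binding protein. TOB1-AS1, beside an antiproliferative regulator gene, held 14 tags at 34.8-fold, and UGDH-AS1, beside the gene of UDP-glucose dehydrogenase, held 12 tags at 41.6-fold. In both of these the peak held the antisense start and the namesake start. The lowest POLR2A scores were 40.2 at RUSC1-AS1, 40.4 at ADAMTSL4-AS1 and 40.8 at GATA2-AS1, with 5, 6 and 4 tags.

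Most antisense genes had a single member peak. In the Flag-USP39 list all 33 did, and in the POLR2A list 105 of 122 did, 13 had 2 peaks, 3 had 3 and 1 had 4. HOXB-AS3 held 13, 9, 6 and 5 tags in its 4 POLR2A peaks, and HOXB-AS1 held 11, 5 and 4 in its 3, both in the HOXB cluster of homeobox genes. TOB1-AS1 had 14, 8 and 7 tags in 3 peaks, and PTOV1-AS2 had 6, 5 and 4. HOXB-AS1 and PTOV1-AS2 are named here after their values were seen. Peaks of 1 gene share their source and are not replicates.

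Antisense genes with a promoter-class peak in both lists can be set side by side. The lists share the input, so likeness of the values is not a result of its own. Tags were close in C21orf62-AS1, DSG1-AS1 and CALML3-AS1, as given above, and in TMEM5-AS1, where the best peak, that with the lowest p-value, held 7 tags for Flag-USP39 (exact 95% Poisson interval 2.81 to 14.4) and 11 for POLR2A (5.49 to 19.7). VIM-AS1 differed: its best peak held 4 tags for Flag-USP39 (1.09 to 10.2) and 25 for POLR2A (16.2 to 36.9), and the 2 intervals did not overlap. The VIM-AS1 peaks were 505 bp long for Flag-USP39 and 1737 bp for POLR2A, and library depth is unknown, so the counts are not on 1 scale. The intervals cover counting only, with 1 library each. KTN1-AS1 held 3 tags for Flag-USP39 and 6 for POLR2A, at peaks on opposite sides of the antisense start, 1355 bp downstream and 493 bp upstream.

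MMP25-AS1 held 4 and 5 tags for Flag-USP39 and POLR2A at overlapping peaks. SLC25A5-AS1, named after the gene of an ADP/ATP translocase, held 3 tags in a Flag-USP39 peak that overlapped a POLR2A peak of 6 tags, and 5 tags in the POLR2A peak of higher score near the namesake start. For ADAMTSL4-AS1, with 5 tags for Flag-USP39 and 6 for POLR2A, and for CADM3-AS1, with 4 in each, the peaks lay at different places.

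**Figure D2:**
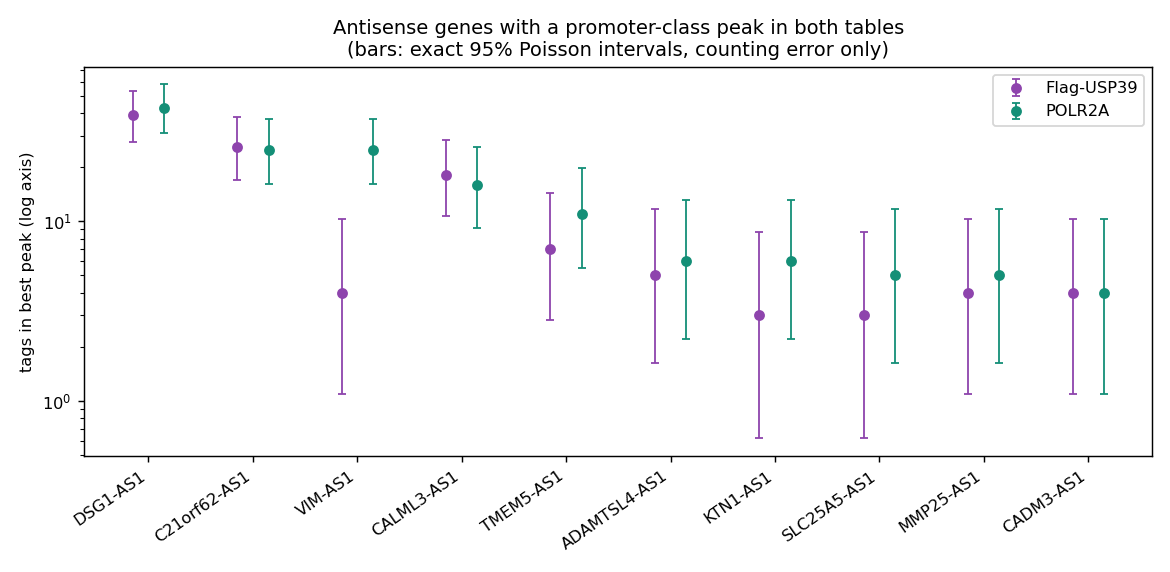
Tags in the best peak (vertical, log axis) of each antisense gene with a promoter-class peak in both lists, Flag-USP39 left and POLR2A right within a gene; bars are exact 95% Poisson intervals, which cover counting error only. The intervals overlap in each gene except VIM-AS1, with 4 tags for Flag-USP39 and 25 for POLR2A. Tags are raw counts from peaks of unlike length in libraries of unknown depth.

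Peak centres lay nearer to the antisense start in the POLR2A list than in the Flag-USP39 list. The median distance from centre to antisense start was 1162 bp for Flag-USP39 and 455 bp for POLR2A. Centres were within 500 bp of the antisense start in 7 of 33 Flag-USP39 members (21.2%, 10.7% to 37.8%) and in 78 of 144 POLR2A members (54.2%, 46.0% to 62.1%). The peak itself held the antisense start in 3 of 33 (9.09%) and in 56 of 144 (38.9%). Centres fell upstream of the antisense start in 15 of 33 and 76 of 144 members.

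The distance set the lists apart in the same direction over all promoter-class peaks. Measured to the nearest start of any gene, the median was 1137 bp in the Flag-USP39 members, beside 896 bp over all promoter-class peaks of that list. It was 254.5 bp in the POLR2A members, beside 245 bp over all its promoter-class peaks. Of all promoter-class peaks, 32.3% for Flag-USP39 and 66.2% for POLR2A lay within 500 bp of the nearest start.

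**Figure D3:**
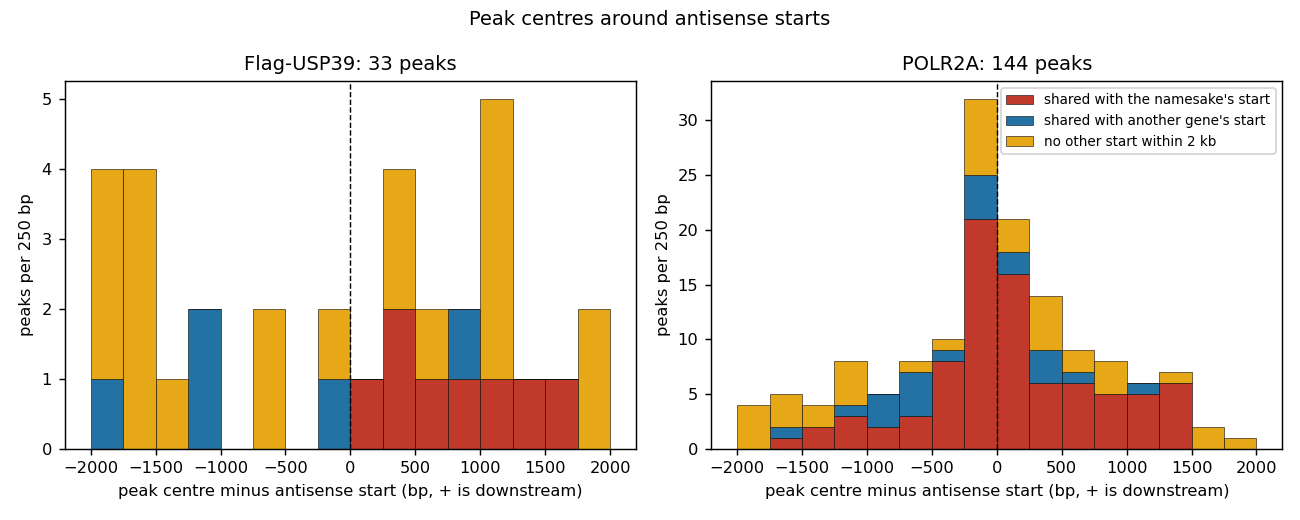
Peaks per 250 bp (vertical) by the distance of the peak centre from the antisense start (horizontal, bp, positive is downstream along the antisense strand) for the 33 Flag-USP39 peaks (left) and 144 POLR2A peaks (right), coloured by what start shares the peak. POLR2A centres gather at the start, where the peaks shared with the namesake also stand, while Flag-USP39 centres spread over the 2 kb on either side.

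The namesake had a row at the same peak in 8 of the 33 Flag-USP39 members (24.2%, 12.8% to 41.0%) and in 84 of the 144 POLR2A members (58.3%, 50.2% to 66.1%); the POLR2A peaks belonged to 75 antisense genes. By the deposited symbols, a start of a different gene on the opposite strand was listed at 5 Flag-USP39 members (15.2%) and 21 POLR2A members (14.6%). The antisense gene stood alone at 20 (60.6%) and 39 (27.1%). No member was shared only with a gene of its own strand. For 1 Flag-USP39 member, HOXC-AS1, and for 8 POLR2A members, of HOXB-AS1, HOXB-AS3 and HOXC-AS2, the root names a cluster of homeobox genes and no gene, so these had no namesake to share a peak with. Among all promoter-class peaks, 7.17% of Flag-USP39 peaks and 18.6% of POLR2A peaks had starts on both strands; antisense genes are named for a gene on the other strand, so nothing is read from the difference.

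Median tags were close whichever start shared the peak. In the Flag-USP39 list the median was 3.5 tags at peaks with the namesake, 4 with another gene and 4 alone. In the POLR2A list it was 5 in all 3 kinds. The share of POLR2A peaks with 10 or more tags was 9 of 84 with the namesake (10.7%, 5.74% to 19.1%), 5 of 21 with another gene (23.8%, 10.6% to 45.1%) and 2 of 39 alone (5.13%, 1.42% to 16.9%), with overlapping intervals. Tags of this assay carry no strand, so those at a shared peak cannot be assigned to the antisense start or to its partner.

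Every namesake pair that shared a peak, 8 for Flag-USP39 and 84 for POLR2A, lay on opposite strands. The pairs divided between divergent starts and overlapping 5′ ends. Divergent starts within 2000 bp were found in 3 of 8 Flag-USP39 pairs (37.5%, 13.7% to 69.4%) and in 46 of 84 POLR2A pairs (54.8%, 44.1% to 65.0%). Overlapping 5′ ends made up the other 5 and 38. With each gene pair counted once, 43 of 75 POLR2A pairs were divergent (57.3%, 46.1% to 67.9%).

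The starts of a pair were usually within 1000 bp of each other. A pair entered only when both starts were listed at the same promoter-class peak, and this alone keeps spacings short. Median spacing was 367.5 bp for Flag-USP39, with a range of 24 to 1727 bp, and 261 bp for POLR2A, with a range of 7 to 2449 bp. Up to 300 bp separated 3 of 8 and 49 of 84 pairs, and more than 1000 bp separated 2 and 12. Divergent pairs were closer than overlapping ones in both lists, with medians of 114 and 395 bp for Flag-USP39 and 194.5 and 464.5 bp for POLR2A.

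For comparison, promoter-class peaks with no antisense row had starts on both strands in 35 of 636 cases for Flag-USP39 (5.50%) and in 361 of 2365 for POLR2A (15.3%). Of these, 22 of 35 and 268 of 361 (74.2%, 69.5% to 78.5%) were divergent, with median spacings of 217 and 239 bp. For POLR2A the divergent share was thus 54.8% in the namesake pairs, against 74.2% in the other promoter-class peaks. The order of starts is set by the annotation, and antisense genes are named for a gene on the other strand. Nothing is therefore read from the difference. Peaks of 1 library were the units, some of them from the same gene pair, and the difference was not tested.

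The 8 Flag-USP39 pairs that are namesake pairs by the deposited symbols can be given in full. Divergent were EGFLAM-AS2, 60 bp from EGFLAM, a gene for an extracellular matrix protein, KTN1-AS1, 114 bp from KTN1, and APCDD1L-AS1, 440 bp from APCDD1L. Overlapping were HHIP-AS1, by 24 bp with the gene of a hedgehog-binding protein, FRY-AS1, by 340 bp with FRY, TGFB2-AS1, by 395 bp with the gene of a transforming growth factor ligand, CALML3-AS1, by 1358 bp, and VIM-AS1, by 1727 bp. Apart from the 18 tags of CALML3-AS1, each of these peaks held 3 or 4 tags. No Flag-USP39 peak held both starts (0 of 8, a Wilson upper bound of 32.4%), the antisense start alone was inside the peak for APCDD1L-AS1 and CALML3-AS1, and in the other 6 neither start was. The order of the starts depends on the annotation: on GRCh38, which held both starts of 6 of these 8 pairs, HHIP-AS1 and FRY-AS1 were divergent, 137 and 135 bp from their namesakes, which would make 5 of 8 pairs divergent.

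POLR2A peaks, longer than the Flag-USP39 ones by the medians given above, held both starts in 25 of 84 pairs (29.8%), the antisense start only in 15, the namesake start only in 16 and neither in 28. The interval of the first share overlapped that of 0 of 8 for Flag-USP39, and the difference was not tested. The summit, the position of the highest signal in a peak, was nearer to the namesake start in 4 of 8 Flag-USP39 pairs and 44 of 84 POLR2A pairs (52.4%, 41.8% to 62.7%). Split by geometry, the Flag-USP39 counts were 0 of 3 divergent and 4 of 5 overlapping pairs, and the POLR2A counts 22 of 46 and 22 of 38. So few Flag-USP39 pairs cannot show whether either start was nearer to the summits. In the POLR2A pairs neither start was nearer more often than the other beyond counting error.

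The closest POLR2A pairs described here had starts within 30 bp of each other. H1FX-AS1, beside a linker histone gene, overlapped its namesake by 7 bp and held 5 tags. STK4-AS1, beside a Hippo pathway kinase gene, and RNASEH1-AS1, beside the gene of a ribonuclease that cuts RNA in RNA-DNA hybrids, were 15 bp from the namesake start. NCBP2-AS2, beside a cap-binding protein gene, was 29 bp from it. Each of these 3 divergent pairs held 4 tags, the fewest of any POLR2A member. The widest pairs were CCND2-AS1, whose 5′ end overlapped the gene of cyclin D2 by 2449 bp and which held 9 tags, MEIS1-AS3 at 1929 bp, and BRWD1-AS1, at 1920 bp from a bromodomain gene with 4 tags.

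**Figure D4:**
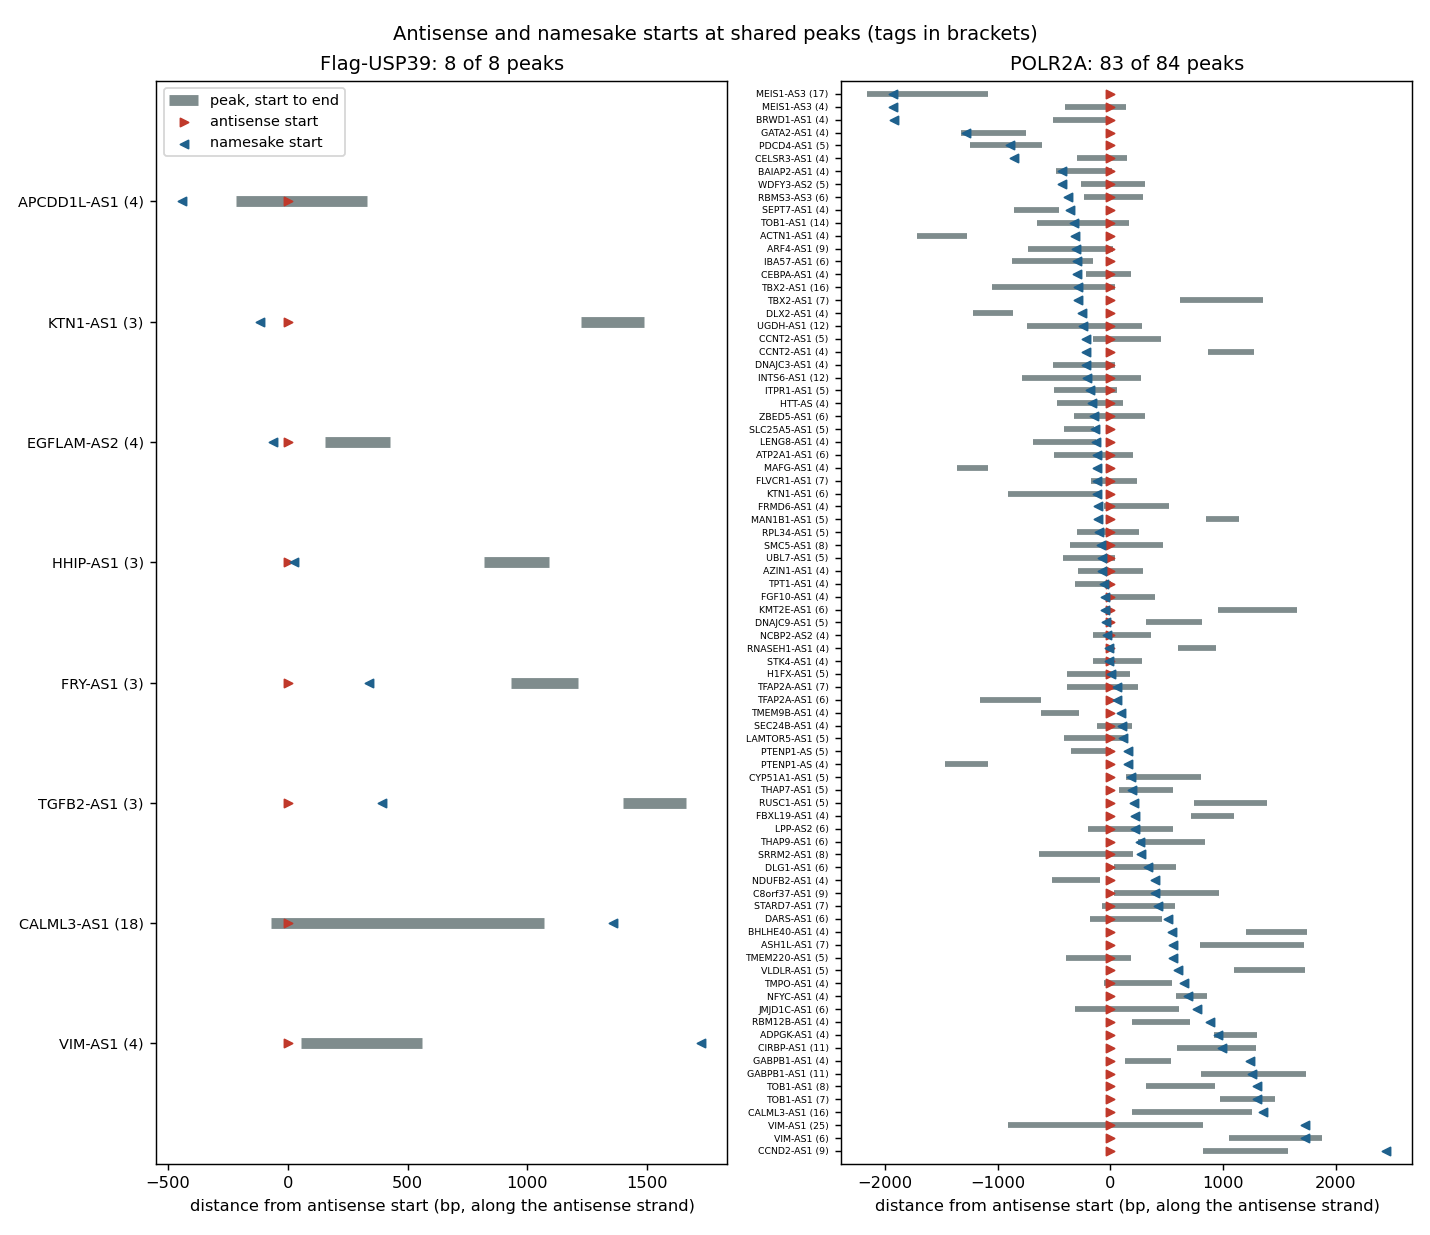
Peaks (grey bars) shared by an antisense gene and its namesake, placed by distance from the antisense start (horizontal, bp, along the antisense strand), with red triangles at the antisense start and blue at the namesake start; tags are in brackets, Flag-USP39 (8 peaks) left and POLR2A right. The map leaves out 1 POLR2A peak, which held neither start. Pairs run from divergent at the top to overlapping at the bottom; POLR2A bars lie over 1 or both starts in 56 of 84 peaks and Flag-USP39 bars in 2 of 8.

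The divergent POLR2A pairs with the most tags and both starts under 1 peak came from several kinds of gene. Besides UGDH-AS1 and TOB1-AS1, at 240 and 324 bp, they included TBX2-AS1 at 289 bp. At the other 2 peaks of TOB1-AS1 the nearest listed starts of the pair overlap by 1300 bp. INTS6-AS1, beside the gene of an Integrator subunit, had its start 205 bp from the namesake's and 12 tags, and ARF4-AS1, beside a small GTPase gene, 300 bp and 9 tags. UBL7-AS1 and CCNT2-AS1 were not among the pairs with the most tags and are given because their windows are printed. UBL7-AS1 held 5 tags at 76 bp. CCNT2-AS1 held 5 tags at 215 bp, with the antisense start inside the peak and the namesake start outside it; the windows of these pairs are printed above. These 4 are named after their values were seen. In the CIRBP-AS1 pair, whose 5′ ends overlap by 993 bp, the peak held the CIRBP start only, 53 bp from the centre. In the VIM pair the larger peak held the VIM-AS1 start, 42 bp from the centre, and a second peak of 6 tags held the VIM start.

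By the deposited symbols, the partner start belonged to a gene other than a namesake at 5 Flag-USP39 and 21 POLR2A members. Of these, 1 and 5 were the peaks in the HOX clusters with no namesake. At a further Flag-USP39 peak, that of SPACA6P-AS, the partner was SPACA6, with 5′ ends overlapping by 113 bp. SPACA6P-AS is now named SPACA6-AS1, so SPACA6 is its namesake under the current symbol. It is counted here by the deposited symbol. Divergent starts within 2000 bp were found in 4 of 5 and 12 of 21, and the median spacing was 113 and 358 bp. PXN-AS1, named after the focal adhesion gene PXN, held 11 POLR2A tags at a fold enrichment of 27.1 with the start of RPLP0 79 bp away in the tables, and PXN had its start 64741 bp from the peak. KDM4A-AS1, named after a histone demethylase gene, held 9 tags at 54.3-fold with ST3GAL3 191 bp away. HOXB-AS1 held 11 tags and overlapped HOXB2 by 681 bp, and HOXB-AS3 overlapped HOXB5 by 1450 bp at its largest peak. At 2 other peaks of HOXB-AS3 the nearest listed starts of the pair were divergent and 2216 bp apart. PXN-AS1, KDM4A-AS1 and HOXB-AS1 are named after their values were seen.

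At 20 Flag-USP39 and 39 POLR2A members no start on the other strand was listed. The position of the namesake could be measured for 9 and 12 of them, from a row elsewhere in the tables, and the median distance from peak centre to namesake start was then 63444 and 52277.5 bp. The peak centre lay inside the listed body of the namesake in 6 of those 9 and 8 of those 12. The distance of the centre from the antisense start had a median of 1279.5 bp in the 20 Flag-USP39 members and 759 bp in the 39 POLR2A members, against 728 and 305.5 bp in the members shared with the namesake.

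Of a list of 30 antisense genes taken for being well known by name, such as CDKN2B-AS1 and DLX6-AS1, none had a member peak for Flag-USP39 (0 of 30, a Wilson upper bound of 11.4%) and 4 had one for POLR2A (13.3%, 5.31% to 29.7%). Any row, of any class, was found for 10 of the 30 for Flag-USP39 and for 12 for POLR2A. Of the listed genes with a row, 0 of 10 and 4 of 12 thus had a member peak. Over all antisense symbols with a row the shares were 13.6% and 40.0%, as given above. Those 4 were HOXB-AS3 with 13 tags, OIP5-AS1 with 6 tags and alone at its peak, THAP9-AS1 with 6 tags and overlapping THAP9 by 267 bp, and MAFG-AS1 with 4 tags at 117 bp from MAFG, the gene of a small MAF transcription factor.

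RefSeq now gives some antisense genes another symbol. Matched by transcript, 33 of 33 Flag-USP39 and 118 of 122 POLR2A antisense genes were in the current table, and 5 and 26 had another symbol there. A name ending in DT, which marks a divergent transcript, was held by 1 Flag-USP39 gene, APCDD1L-AS1, and by 15 POLR2A genes, among them UBL7-AS1, STK4-AS1 and RNASEH1-AS1. Each of them had a divergent partner at its member peak in the deposited tables. Spacings were also set beside those on GRCh38. Where several starts were listed there, those with the spacing closest to the deposited one were taken, so the matching favours likeness. Of 66 pairs with both starts on GRCh38, 61 kept the order of their starts and 42 had a spacing within 50 bp of the deposited one. Of the namesake pairs found there, 2 of 6 for Flag-USP39 and 3 of 53 for POLR2A changed order. Among those of POLR2A was FRMD6-AS1, named after its values were seen. Its spacing was 113 bp as deposited and -162616 bp on GRCh38, so a far start was matched and its order cannot be compared. The PXN-AS1 pair kept its order but not its spacing, with 79 bp in the tables and 180 bp on GRCh38.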

How the data were processed

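A table was used for each antibody against the same input, with 1 library per group. Per the submitters' processing notes, the tools included Bowtie2 2.2.4 and MACS 1.4.3, and positions are on hg19. The sources used here do not give the duplicate handling, library totals or annotation release. Tag counts were deposited as whole numbers per peak, not normalised. The deposited score is a log10 transform of each peak's p-value, with 100 standing for 1e-10, per the file headers. The deposited fold enrichment is a ratio on a linear scale, and the deposited FDR is in percent. The scores start at 50.1 in the Flag-USP39 and at 40.0 in the POLR2A promoter-class peaks, so the 2 lists differ in threshold.

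Each table has a line per transcript, and each peak had 1 class. Peaks were counted once by position. The namesake is the deposited symbol without its antisense ending, so genes renamed since keep their old root. Spacing is the plus-strand start minus the minus-strand start of the nearest listed transcripts; above 0 the starts are divergent, below 0 the 5′ ends overlap. Deposited plus-strand starts can be 1 bp off: 12 of 66 pairs were 1 bp longer on GRCh38. PTENP1-AS and PGM5P3-AS1 relate to pseudogenes or near copies, so their tags are uncertain. The deposited root of SPACA6P-AS reads as a pseudogene, but its current symbol is SPACA6-AS1.

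Intervals are 95% Wilson for shares and exact Poisson for tags. No test was made, since there was 1 library per group. Python 3.11.15, pandas 2.3.3, numpy 2.4.6, scipy 1.17.1 and matplotlib 3.10.9 were used, and the pairing was tested on simulated data. The members, the list of 30 antisense genes and the rules were chosen with earlier results of these data known. Genes were named by rule: those of the 10 peaks with the lowest p-value per antibody, those in both lists, the 5 smallest and 3 largest spacings per antibody, members of the list and the 3 lowest scores per antibody; others are said to be named after their values were seen. A gene selected by this rule is not reported here by name. Of the antisense genes, 63.6% (Flag-USP39) and 74.6% (POLR2A) matched the RefSeq promoter table by symbol or identifier, too few for a comparison of base composition over the set, so none is given. Alternatives were a score of at least 100, a score of at least 50 in both lists, a start within 1 kb and others.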

Additional observations from a re-analysis of the deposited data

How the results depend on the processing

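Of 128 values recomputed under alternatives, 95 stayed within the limits set and 33 moved, 17 for Flag-USP39 and 16 for POLR2A. A score of at least 100 left 3 Flag-USP39 peaks, 1 with its namesake and 0 divergent, with a spacing of 1358 bp and medians of 26 tags, a fold enrichment of 66.0 and a score of 390.0; a minimum of 10 tags, an alternative chosen after seeing the data, left the same values. For POLR2A the score of at least 100 left 17 peaks, 10 with the namesake and 6 divergent, with a median spacing of 658.5 bp and medians of 13 tags, 41.6-fold and a score of 128.9. The minimum of 10 tags left 16, 9 and 5, with 993 bp, 13.5 tags, 40.4-fold and 129.5. With a score of at least 50 in both lists POLR2A had 93 peaks and 28 divergent pairs. With the antisense start within 1 kb, Flag-USP39 had 13 peaks and 5 with the namesake, and with any opposite-strand gene as partner it had 13 pairs. No paired analysis was possible because each group has 1 library and no test was made. Medians of 4 and 5 tags limit every peak value, and a site with fewer tags could not enter the lists. Library depth is unknown.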
